A study of Mus musculus with 6 samples.

Results

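The 10 genes described are markers of endothelial cells, read in cultures of bone marrow stromal cells: Cdh5, Pecam1, Tie1, Emcn, Eng, Cd34, Esam, Cldn5, Vwf and Esm1. All 10 were measured, by 12 probe sets that carry a single gene symbol, out of 18193 genes in 45037 probe sets. Cdh5 and Eng have a pair of probe sets each, and the one given for each gene was chosen by its mean log2 signal over all 6 arrays, a mean that does not use the difference between the groups. The genes themselves were chosen with earlier results of these arrays known, so their changes are given as a description beside the share of all genes that changed. The iLarge T BMSC (replicates 2, 4 and 6) are stromal stem cells of the transgenic H-2Kb-tsA58 (Immortomouse) strain, whose temperature-sensitive SV40 large T antigen keeps cells dividing at 33°C. They were given into a vein of C57BL/6 mice 24 h after reperfusion from a middle cerebral artery occlusion, and 14 days later the infarcted hemisphere was digested with collagenase and its cells were plated and kept for 3 passages. The naïve Large T BMSC (replicates 1, 3 and 5) are the parent line, which carries the same transgene, was kept in culture for 3 passages and never entered a brain. Each array holds RNA pooled from 3 hemispheres or 3 sets of naïve cells, the recovered cells were picked by attachment and growth at 33°C with no sort on a surface marker, and the plated tissue also held cells of the host. By the methods, hemispheres of mice given saline or wild-type BMSC yielded no growth when plated in the same way. The paper also reports that every cell recovered in this way stained for Large T antigen.

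Endothelial cells line blood vessels. They hold to each other through adherens junctions built on vascular endothelial cadherin, and through tight junctions in which claudin 5 seals the vessels of the brain. They also carry angiopoietin receptors of the Tie family, coat their surface with sialomucins and store von Willebrand factor for release on injury. Several of these genes are not limited to endothelium. Endoglin is a standard surface marker of marrow stromal cells, Cd34 is carried by blood progenitors and by some fibroblasts, and Pecam1 is found on leukocytes and platelets.

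Promoter sequence from RefSeq (build GRCm38.p6) was held for 6 of the 10 genes, and 4 of these are shown because their genes span the patterns described below. Tie1 stood out on 1 recovered array. Emcn and Esm1 were bright on all recovered arrays, with Emcn brightest on 1 of them. Cd34 was bright in the parent line. Each sequence gives the 250 bases before the annotated start, read 5′ to 3′ on the strand of the gene. Capitals mark GGAAGT on either strand, a core that factors of the ETS family, the family of the endothelial regulators ERG and FLI1, can bind.
Emcn, chr3:137340828-137341077, plus strand: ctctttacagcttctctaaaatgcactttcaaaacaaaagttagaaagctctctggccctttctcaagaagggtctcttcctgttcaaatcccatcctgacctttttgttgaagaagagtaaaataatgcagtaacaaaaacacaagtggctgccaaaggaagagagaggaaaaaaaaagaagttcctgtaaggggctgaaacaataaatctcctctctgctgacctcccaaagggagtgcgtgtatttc
Tie1, chr4:118489850-118490099, minus strand: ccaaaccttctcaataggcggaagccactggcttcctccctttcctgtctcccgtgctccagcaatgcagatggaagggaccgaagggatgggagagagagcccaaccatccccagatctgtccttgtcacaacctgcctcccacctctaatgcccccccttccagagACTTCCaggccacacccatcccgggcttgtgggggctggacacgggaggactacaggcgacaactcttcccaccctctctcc
Esm1, chr13:113209409-113209658, plus strand: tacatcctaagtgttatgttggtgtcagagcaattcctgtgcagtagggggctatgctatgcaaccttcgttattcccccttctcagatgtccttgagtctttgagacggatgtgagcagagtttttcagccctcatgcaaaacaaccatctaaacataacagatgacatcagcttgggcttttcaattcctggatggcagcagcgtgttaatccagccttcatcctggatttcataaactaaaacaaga
Cd34, chr1:194938571-194938820, plus strand: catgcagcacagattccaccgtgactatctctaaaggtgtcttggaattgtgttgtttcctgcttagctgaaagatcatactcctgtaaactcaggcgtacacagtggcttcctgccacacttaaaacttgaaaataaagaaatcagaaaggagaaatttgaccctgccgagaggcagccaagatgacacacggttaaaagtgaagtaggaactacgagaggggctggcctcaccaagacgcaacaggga
Matches to GGAAGT lay in the windows of Tie1 and Eng, so in 2 of 6, and 19.7% of 32851 windows of this length over all genes hold one. AGATAA on either strand, a core of the GATA family, lay in 0 of the 6 windows, against 9.99% of all windows.

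The values are MAS5 signals, an intensity per probe set on a linear scale, and carry no detection calls. A signal under the 40th percentile of its own array, which lay between 183 and 299.6, is called near background here. The 15 measured genes of a stromal list, among them the collagen chains Col1a1 and Col3a1 and vimentin, lay above this limit on all 6 arrays. Log2 signals of all probe sets correlated at 0.845 to 0.863 among the iLarge T arrays, and at 0.829 to 0.892 among the naïve arrays. For Gapdh, the control probe set at the 3′ end gave 0.673 to 0.831 times the signal of that at the 5′ end, a sign of RNA quality, with iLarge T replicate 6 highest and naïve replicate 1 lowest. For actin the same ratio was 1.08 to 1.21, with iLarge T replicate 6 lowest, so the controls do not order the arrays alike. A gene is called single-array here where its signal on an array is above background and at least 4-fold that on each other array of the group. The share of single-array genes was 1.73% on iLarge T replicate 6, close to the 1.61% on replicate 2 and 1.18% on replicate 4, and was 4.25% on naïve replicate 1, against under 1% on the other naïve arrays. With the dimmer arrays raised to their 40th percentile first, the shares were 0.792% on iLarge T replicate 6 and 1.82% on naïve replicate 1, which set both apart from the other 4 arrays, where they were 0.104% at most. In a bulk culture, fewer cells of a type and less RNA per cell cannot be told apart.

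Across the 6 arrays the 10 genes split into several patterns. Cdh5 and Emcn were bright on every iLarge T array and near background on every naïve array, and both were brightest on iLarge T replicate 6. Pecam1, Tie1, Vwf and Cldn5 stood out on iLarge T replicate 6. Eng and Esam were above background everywhere, Cd34 was lower in iLarge T BMSC, and Esm1 was present at a similar signal on all 3 iLarge T arrays. By limma, with p-values adjusted over all probe sets and a change of at least 2-fold, Cdh5, Emcn and Esm1 rose, Cd34 fell, and 6 genes did not pass. Among all 18193 genes, 3.54% rose and 3.26% fell. The signals of the groups did not overlap for 5 of the 10 genes that lay higher and 1 that lay lower, against 14.5% and 13.1% of all genes. For Pecam1 and Tie1, which are among the 5, some iLarge T signals were near background too and have no order, so the separation can be read for the other 3, Cdh5, Emcn and Esm1.

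**Figure D1:**
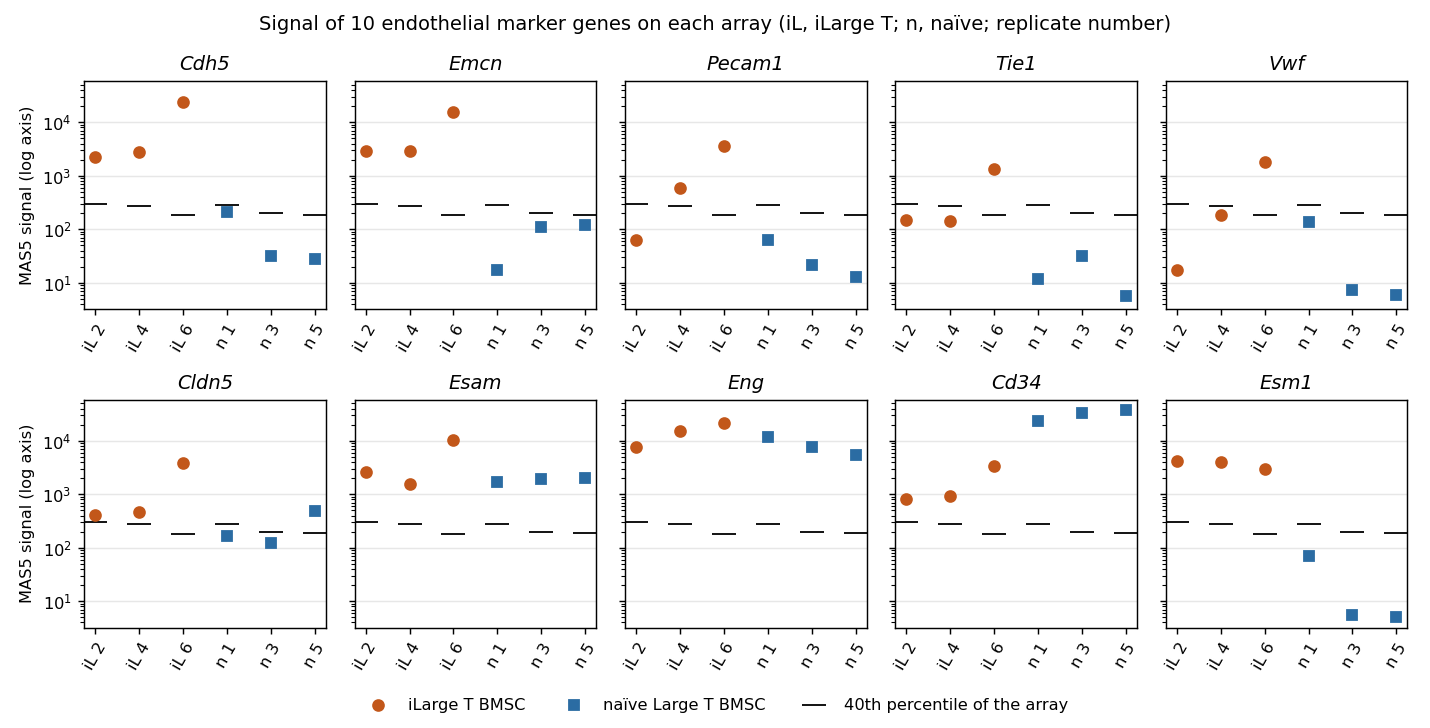
MAS5 signal (log axis) of each of the 10 endothelial marker genes on each array; circles are iLarge T BMSC (replicates 2, 4 and 6), squares naïve Large T BMSC (replicates 1, 3 and 5), and dashes the 40th percentile of each array. On iLarge T replicate 6, Cdh5 reached 23797 and Emcn 15858, while Esm1 lay between 3006 and 4127 on the 3 iLarge T arrays.

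Among the adhesion molecules of endothelial junctions, Cdh5, which encodes vascular endothelial cadherin, had signals of 2211, 2787 and 23797 on iLarge T replicates 2, 4 and 6, against 210, 32.0 and 27.5 on naïve replicates 1, 3 and 5. The groups did not overlap, and the naïve signals all lay near background. The mean was 9598 ± 12300 in iLarge T and 89.8 ± 104 in naïve BMSC (SD, n = 3 each). Cdh5 rose by 6.53 on the log2 scale (SE, the standard error, 1.04, limma adjusted p = 0.0076). Set against the background limit, this is at least 24.1-fold higher, while the bound became 11.4 when iLarge T replicate 6 was left out and 37.3 when replicate 2 was. The other probe set of Cdh5 gave 954, 602 and 8360 on the iLarge T arrays and 46.9, 102 and 22.3 on the naïve arrays, with a log2 fold change of 5.15 (SE 1.07, limma adjusted p = 0.0244). Without iLarge T replicate 6 the main probe set still passed (5.45, adjusted p = 0.0433), and the other did not (adjusted p = 0.116).

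Pecam1 encodes an adhesion receptor at the contacts of endothelial cells, which leukocytes and platelets carry too. Its signals were 62.5, 580 and 3560 on iLarge T replicates 2, 4 and 6, against 62.2, 21.9 and 12.6 on naïve replicates 1, 3 and 5. Replicates 4 and 6 lay above background, whereas replicate 2 was near it and close to naïve replicate 1. The log2 fold change was 4.29 (SE 1.47, limma adjusted p = 0.148), and it did not pass.

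Cldn5, the tight junction claudin of brain endothelium, had signals of 409, 463 and 3772 on the iLarge T arrays and of 168, 121 and 494 on the naïve arrays. The groups overlapped, since naïve replicate 5 lay above iLarge T replicates 2 and 4. Its log2 fold change of 2.05 (SE 0.94, limma adjusted p = 0.295) did not pass. Esam, an immunoglobulin-like adhesion molecule of endothelial tight junctions and platelets, had 2619, 1539 and 10222 on the iLarge T arrays, against 1682, 1921 and 1990 on the naïve arrays. Without replicate 6 the log2 difference of Esam was 0.11, against 0.89 with it, and neither value passed (adjusted p = 0.925 and 0.501).

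Of the receptors and surface glycoproteins, Tie1 encodes an orphan receptor tyrosine kinase of endothelium that tunes angiopoietin signalling. It was above background on 1 of the 6 arrays, with signals of 147, 143 and 1367 on iLarge T replicates 2, 4 and 6 and of 11.8, 31.7 and 5.66 on naïve replicates 1, 3 and 5. The log2 fold change was 4.57 (SE 1.29, limma adjusted p = 0.0812), but every signal other than that of iLarge T replicate 6 was near background, so this fold rests on signals without an order.

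Emcn encodes endomucin, a sialomucin of capillary and venous endothelium. Its signals were 2857, 2917 and 15858 on the iLarge T arrays, against 17.4, 108 and 122 on the naïve arrays. Emcn rose by 6.37 on the log2 scale (SE 0.92, limma adjusted p = 0.00477) and was at least 23.3-fold higher, with 13.2 as the bound when iLarge T replicate 6 was left out. Replicates 2 and 4 differed little from each other and lay well above every naïve array, and without replicate 6 Emcn still passed (5.56, adjusted p = 0.0350).

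Eng encodes endoglin, a co-receptor for ligands of the TGF-beta family that marrow stromal cells and endothelium share. Its signals were 7752, 15145 and 21811 on the iLarge T arrays and 12028, 7534 and 5520 on the naïve arrays. The groups overlapped and no array was near background. The log2 fold change was 0.79 (SE 0.41, limma adjusted p = 0.368). At its other probe set Eng had 4239, 4442 and 5314 in iLarge T and 4861, 1438 and 766 in naïve BMSC, which did not pass either (1.41, adjusted p = 0.229).

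Cd34 encodes a surface sialomucin of endothelium, blood progenitors and some fibroblasts. It had signals of 833, 928 and 3396 on iLarge T replicates 2, 4 and 6, against 23865, 33470 and 37845 on naïve replicates 1, 3 and 5. It is the only one of the 10 genes whose naïve signals all lay above those of iLarge T BMSC, and within the iLarge T arrays replicate 6 was again highest. Cd34 fell by 4.50 on the log2 scale (SE 0.49, limma adjusted p = 0.00129), and by 5.15 without replicate 6 (adjusted p = 0.000826).

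Of the secreted products, Vwf encodes von Willebrand factor, which endothelial cells and megakaryocytes store and release. Its signals were 17.3, 183 and 1804 on the iLarge T arrays and 138, 7.23 and 5.82 on the naïve arrays. Like Tie1, it was above background on iLarge T replicate 6 alone. The log2 fold change of 3.32 (SE 1.85, limma adjusted p = 0.407) did not pass.

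Esm1 encodes endocan, a proteoglycan of activated endothelium. It had 4127, 3990 and 3006 on iLarge T replicates 2, 4 and 6, against 69.8, 5.45 and 5.01 on naïve replicates 1, 3 and 5. The iLarge T signals lay close together, with replicate 6 lowest, which sets Esm1 apart from the other 9 genes, each of which was highest of the iLarge T arrays on replicate 6. Of all genes, 29.2% were highest of the iLarge T arrays on replicate 6. Esm1 rose by 8.21 on the log2 scale (SE 1.08, limma adjusted p = 0.00324) and was at least 16.8-fold higher, or at least 18.6-fold without replicate 6.

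**Figure D2:**
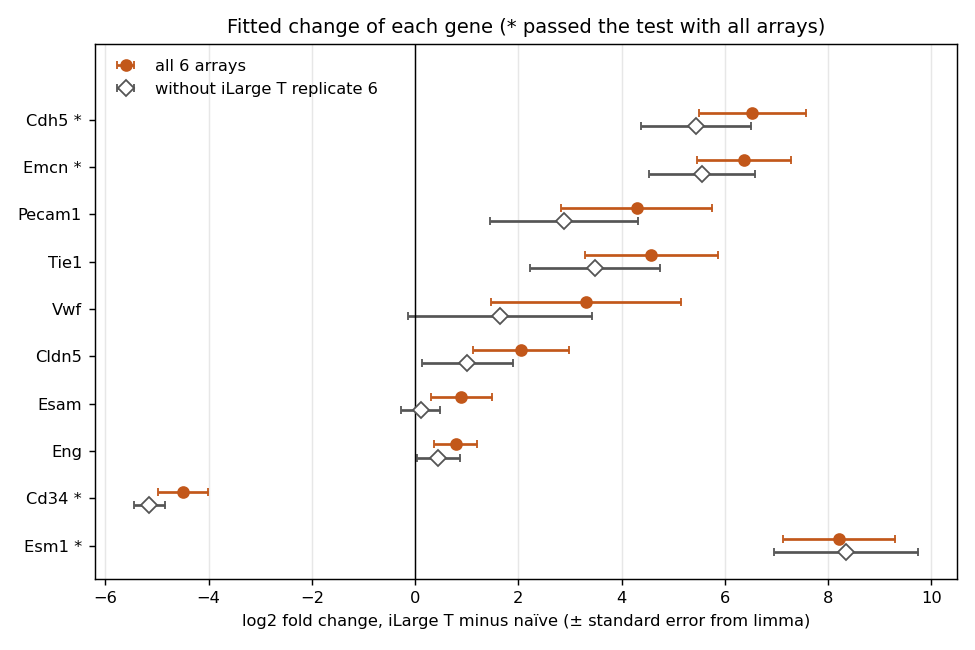
Log2 fold change (iLarge T minus naïve, x axis) of each gene with its standard error from limma, with all 6 arrays (filled circles) and without iLarge T replicate 6 (open diamonds); an asterisk marks genes that passed with all arrays. Cdh5, Emcn, Cd34 and Esm1 kept their side of 0 by several standard errors, while Esam moved to 0.11.

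Array by array, 7, 8 and 10 of the 10 genes were above background on iLarge T replicates 2, 4 and 6, and 3, 3 and 4 on naïve replicates 1, 3 and 5. Of all genes, 70.6%, 71.5% and 73% were above it on the iLarge T arrays, near the first 2 of these counts, and 69.1%, 69% and 68.7% on the naïve arrays. On iLarge T replicate 6, 6 of the 10 were single-array genes, namely Cdh5, Pecam1, Tie1, Emcn, Cldn5 and Vwf, against 1.73% of all genes. The 6 were unchanged when the other arrays were first raised to their 40th percentile, where 0.792% of all genes passed. Measured this way against the brighter of replicates 2 and 4, replicate 6 was 8.54-fold higher for Cdh5, 8.14-fold for Cldn5 and 5.44-fold for Emcn. Nearest the limit were Tie1 inside it, at 4.56-fold, and Esam outside it, at 3.90-fold. On the other arrays 0 of the 10 were single-array genes. Cdh5, Vwf and Esm1 had over 4-fold the signal on naïve replicate 1 that they had on replicates 3 and 5, but all of these signals were near background.

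Without iLarge T replicate 6, Cdh5, Emcn and Esm1 still rose and Cd34 still fell, where 1.59% of all genes rose and 1.90% fell. The same 4 genes passed without each of the other arrays in turn. The median log2 fold change of the 10 genes was 3.80 with all arrays and 2.27 without replicate 6, against 0.06 and 0.10 over all genes. These medians rest in part on signals near background, and the median was 1.42 once each signal under the 40th percentile was set to it, against 0.17 over all genes.

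Markers of other cells moved with these genes on iLarge T replicate 6. Of 17 measured leukocyte and macrophage genes, 16 were above background on that array and 11 were single-array genes there. Of all genes, 73% and 1.73% were. Their summed signal was 275675 on replicate 6, against 11196 and 14345 on replicates 2 and 4 and 5488 to 12862 on the naïve arrays. Lyz1 and Lyz2 made up most of the sum on replicate 6, and Cd68 most of that on naïve replicates 3 and 5. Lyz2, a lysozyme of macrophages, had 1125, 2844 and 78316 on iLarge T replicates 2, 4 and 6, against 324, 200.4 and 34.2 on the naïve arrays. Lyz1, its paralog, whose probe set may share RNA with Lyz2, and the adaptor Tyrobp were among the brightest there too, at 91309 and 18261. Cd68, a lysosomal protein of macrophages, had 317, 1329 and 16962 on the iLarge T arrays, but 544, 9873 and 8396 on the naïve arrays, so it was bright in the parent line as well. Mpeg1 and C1qa, genes of macrophages, had 14553 and 8547 on replicate 6 and were near background on every other array. Ptprc, the CD45 antigen of all leukocytes, had 4440 on replicate 6 and was near background on the other 5 arrays. Mpeg1, C1qa, Ptprc and C1qb lie outside the rule for named genes and were named after their values were seen, as defining markers. The part of leukocytes in the endothelial signals of replicate 6 was not tested. On replicates 2 and 4, where Cdh5 and Emcn were bright, Ptprc, Mpeg1, C1qa and C1qb were near background, while Lyz1, Lyz2 and Csf1r were above it. In all, 12 and 9 of the 17 genes (70.6% and 52.9%) lay above it there, against 70.6% and 71.5% of all genes. On naïve replicates 1, 3 and 5 the counts were 8, 8 and 7.

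**Figure D3:**
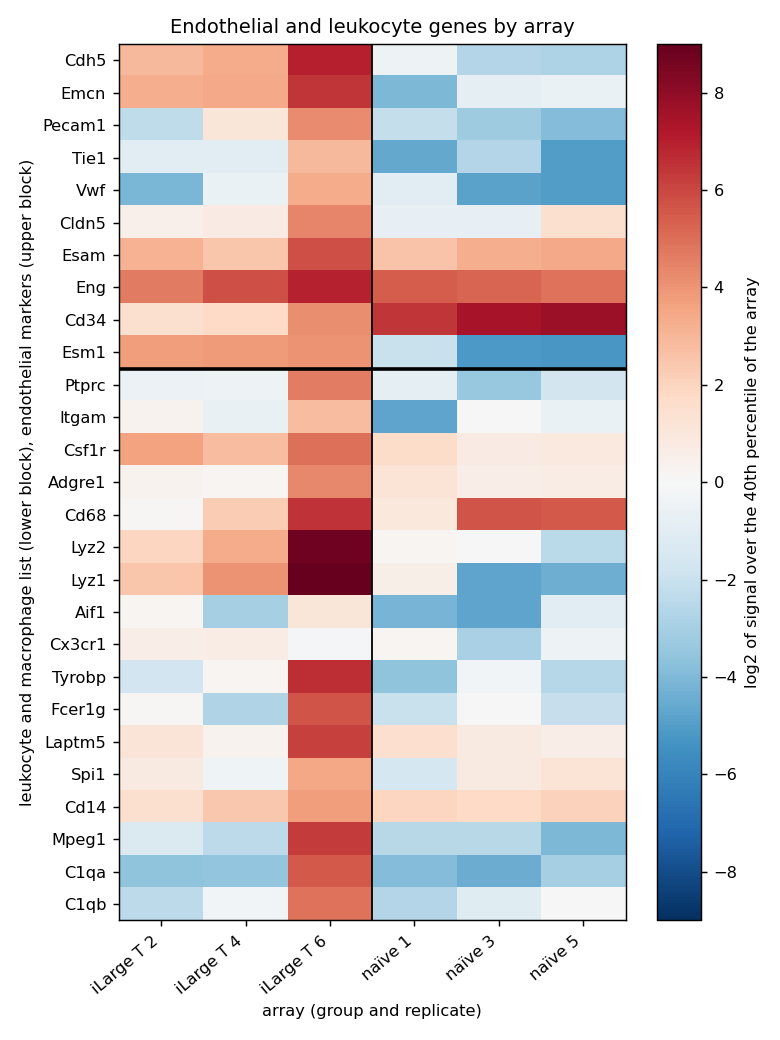
Log2 of the signal over the 40th percentile of the array (colour) for the 10 endothelial markers (upper block) and 17 leukocyte and macrophage genes (lower block, rows) on the 6 arrays (columns, iLarge T left of the vertical line). Red cells are above the limit; on iLarge T replicate 6 all 10 endothelial markers and 16 of the 17 leukocyte genes are.

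Further endothelial genes were read from a list of 51, of which 50 were measured. By limma 4 rose, 2 fell and 44 did not pass, with a median log2 fold change of 0.55, where 3.54% of all genes rose and 3.26% fell, so that the count that fell is near the share of all genes. Angpt2, the angiopoietin that vessels release when they remodel, rose by 4.10 (adjusted p = 0.0209). Abcb1a, a drug efflux pump of brain endothelium, rose by 4.08 (adjusted p = 0.0186), and Thbd, which encodes thrombomodulin, by 1.60 (adjusted p = 0.00973). Signals of Angpt2 on naïve replicate 5 and of Abcb1a on naïve replicates 3 and 5 were near background. The folds of Angpt2 and Abcb1a thus rest in part on signals without an order. Flt1, a VEGF receptor, was near background on the naïve arrays, and its fold was at least 6.71 (adjusted p = 0.0412), or at least 4.59 without iLarge T replicate 6. Tek, the angiopoietin receptor, fell by 3.51 (SE 0.44, limma adjusted p = 0.00243), with signals of 502, 458 and 1300.3 on the iLarge T arrays, against 5703, 8480 and 9080 on the naïve arrays. Tal1, a transcription factor of blood and endothelial progenitors, fell by 3.48 (adjusted p = 0.00212). Tal1 and Thbd were named after their values were seen. Without iLarge T replicate 6, Thbd rose and Tek and Tal1 fell, and Flt1, Abcb1a and Angpt2 no longer passed (adjusted p = 0.185, 0.0960 and 0.0705).

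The same arrays stood apart in this list. On iLarge T replicate 6, 7 of the 50 were single-array genes, against 1.73% of all genes, among them Cd93, a lectin-like receptor of endothelium and myeloid cells, at 12685 against 958 and 570 on replicates 2 and 4. Ecscr, an endothelial regulator of chemotaxis, had 1721, 1142 and 10062 on the iLarge T arrays, and on the naïve arrays 7161, 465 and 138. Angpt2 had 3822, 1235 and 16288 on the iLarge T arrays and 322, 338 and 141 on the naïve arrays. The transcription factor Erg, an ETS regulator of endothelial identity, had 1312 on replicate 6, was near background on the other 5 arrays, and was likewise named after its values were seen. On naïve replicate 1, 8 of the 50 were single-array genes, against 4.25% of all genes. Ptprb, the endothelial receptor phosphatase that acts on Tek and Cdh5, had 20966 there, and 1850 and 2660 on naïve replicates 3 and 5. Without that array 10 of the 50 rose and 3 fell, where 7.13% of all genes rose and 6.67% fell. With the dimmer arrays raised to their 40th percentile first, 5 of the 50 were single-array genes on iLarge T replicate 6. On naïve replicate 1 the count was then 4. The shares of all genes were 0.792% and 1.82%.

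**Figure D4:**
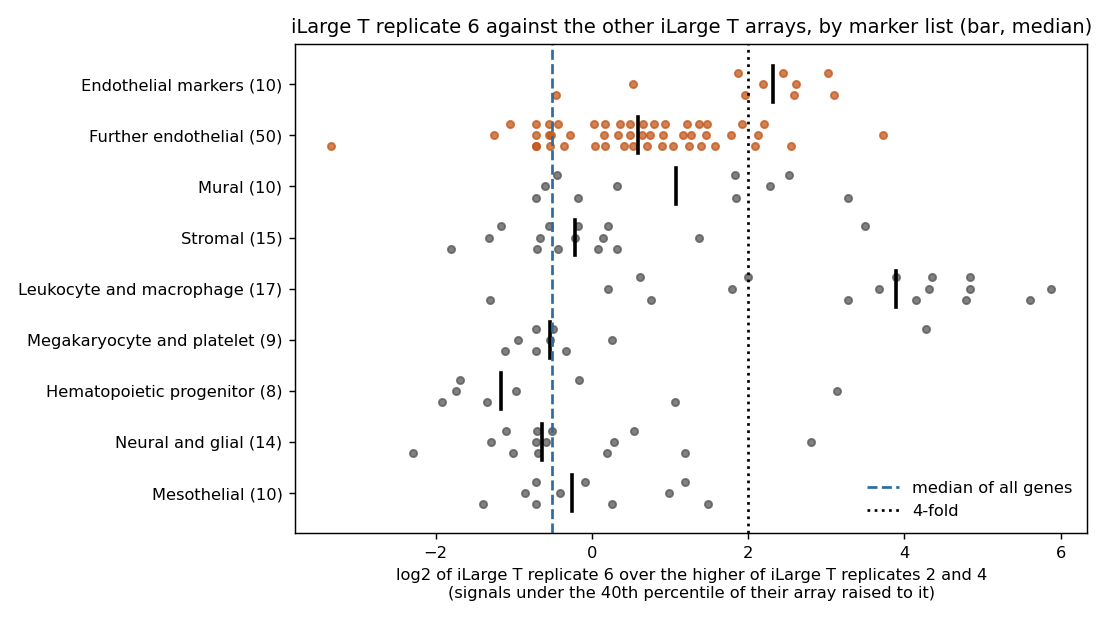
Log2 of the signal on iLarge T replicate 6 over the higher of iLarge T replicates 2 and 4 (x axis, low signals raised to the 40th percentile) for each measured gene of each marker list (rows, with the number of genes); bars are list medians, the dashed line the median of all genes and the dotted line 4-fold. The median was 2.32 for the 10 endothelial markers, 0.59 for the further endothelial genes, 3.89 for the leukocyte and macrophage genes and -0.51 for all genes.

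Of the other lists, mural cell genes, which mark pericytes and vascular smooth muscle, had 2 of 10 that rose, Rgs5 and Cspg4. Beside the counts of these lists, 3.54% of all genes rose and 3.26% fell. Without iLarge T replicate 6 these shares were 1.59% and 1.90%. Rgs5, a regulator of G protein signalling in pericytes, had 5946, 1761 and 21367 on iLarge T replicates 2, 4 and 6, against 245, 8.04 and 126 on the naïve arrays, and its fold was at least 27.8 (limma adjusted p = 0.0166), or at least 14.8-fold without replicate 6, where it did not pass (adjusted p = 0.0948). Cspg4, the NG2 proteoglycan, rose by 3.56 (adjusted p = 0.000969). Of the mural genes 3 were single-array genes on iLarge T replicate 6 (Des, Mcam and Myh11), against 1.73% of all genes. As many were on naïve replicate 1 (Acta2, Mcam and Tagln), against 4.25% of all genes. Without naïve replicate 1 the number of mural genes that rose was 7, where 7.13% of all genes rose. Of 15 stromal genes 3 rose, with Pdgfrb, S100a4 and Cd44, and 1 fell, Dcn, and Cd44 did not pass without iLarge T replicate 6 (adjusted p = 0.058). The stromal gene Thy1 was a single-array gene on iLarge T replicate 6, at 3648, 1462 and 41122 on the iLarge T arrays. Thy1 and Col1a2 were single-array genes on naïve replicate 1. Of 10 mesothelial genes 7 fell and none rose, among them Upk3b, Bnc1, Gpm6a and Wt1, and 6 fell without iLarge T replicate 6, since Krt19 no longer passed (adjusted p = 0.116). Of 17 leukocyte and macrophage genes 2 rose, Csf1r and Lyz1, and neither passed without iLarge T replicate 6 (adjusted p = 0.0806 and 0.112). Of 9 megakaryocyte and platelet genes 2 rose, Itgb3 and Gp1bb, and neither passed without iLarge T replicate 6 (adjusted p = 0.136 and 0.0534). Pf4, a platelet chemokine that macrophages can also make, had 634, 490 and 12290 on the iLarge T arrays. Elsewhere in the platelet list, Gp9 and Ppbp were near background on all 6 arrays, while Itga2b, Itgb3 and Gp5 were above it on all 6. Gp9, Ppbp, Itga2b and Gp5 were also named after their values were seen. Of 8 genes of hematopoietic progenitors Meis1 fell and none rose, and of 14 neural and glial genes 4 rose, with Fabp7, Sox2, Tubb3 and Nes. Without iLarge T replicate 6, Meis1 (adjusted p = 0.112), Sox2 (0.0685) and Tubb3 (0.189) no longer passed. The single-array genes of the progenitor and neural lists on iLarge T replicate 6 were Cd48, at 2634, and Gfap, at 3104.

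For 3 of the markers the genes with the most similar log2 signals over the 6 arrays, by Pearson's r among 16159 genes above background on at least 1 array, are given as a description. With 6 points in 2 groups, many genes reach a high r, and signals near background enter it. For Cdh5 they were Reep2, Calu, Creg1, Cdc42ep4 and Rrbp1 (r of 0.995 to 0.997), none of them on a marker list. For Cd34 they were Tek (r = 0.999), Chn2, Vcam1, Rfx2 and Pank4 (r of 0.995 to 0.998). For Esm1 they were D6Ertd527e, Rassf1, Masp1, Tmem41b and Btg1 (r of 0.997 to 0.999). The nearest of the 10 markers to Cdh5 was Esm1 (r = 0.941), followed by Pecam1 (r = 0.921) and Tie1 (r = 0.919).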

How the data were processed

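RNA of cultured cells was hybridized to 6 Affymetrix Mouse Genome arrays, 3 of iLarge T and 3 of naïve Large T BMSC, grouped by their labels. The authors deposited MAS5 intensity signals, 1 per probe set on a linear scale, which were scaled so that each array has a trimmed mean of 2500. The table has 45101 probe sets, of which 64 controls were left out. Among the rest, a single gene symbol is annotated to 34945, several to 932 and none to 9160, and the 932 were used to name nothing. By gene identifier, 34741 were found in the RefSeq table, and 0 symbols changed. Signals were taken to log2 and fitted in R 4.3.3 with limma 3.58.1, where eBayes followed the trend of the spread with intensity. P-values were adjusted by Benjamini-Hochberg over 45037 probe sets, and a call took 2-fold or more together with an adjusted p below 0.05. Python 3.11.15 (pandas 2.3.3, numpy 2.4.6, matplotlib 3.10.9, scipy 1.17.1) made the tables and figures. The script was tested on simulated data.

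Where all arrays of a group lay under the 40th percentile, the fold is a bound, from the mean log2 signal of the brighter group and the mean of the 40th percentiles or the signals of the dimmer group, whichever was higher on each array. Members, gene lists (further endothelial, stromal, mural, mesothelial, leukocyte and macrophage, megakaryocyte and platelet, hematopoietic progenitor, neural and glial) and alternatives were chosen with earlier results of these data known. The rule for named genes takes all 10 markers, up to 4 called and 4 single-array genes of each list, and the 5 genes most like Cdh5, Cd34 and Esm1. As alternatives, limma was run without the trend, after quantile normalization, with dim probe sets filtered out, with signals raised to the 40th percentile, with 16 added before log2, with other choices of probe set and with arrays left out, and the methods' t-test was run on log2 and on linear signals. The methods call the sets of experiments independent, while neither they nor the labels say which arrays form a set, and the number of arrays limits the precision. The RT-PCR and staining data are not analysed here.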

Additional observations from a re-analysis of the deposited data

How the results depend on the processing

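No paired analysis was possible because the replicate numbers of the groups, 2, 4 and 6 and 1, 3 and 5, are not shared and no label pairs the arrays. Of the 10 markers, 4 passed with all arrays, and the same count was found under quantile normalization, the filter on dim probe sets, the floor, log2 of the signal plus 16, other probe sets and each array left out. The filter left 7 of the 10 to test, since Pecam1, Tie1 and Vwf fell out. Cdh5, Emcn and Esm1 entered it only through their iLarge T arrays, where they are high, so their calls under it add no separate support. With limma without the intensity trend 1 passed, Esm1. With the methods' t-test 0 passed on log2 and 0 on linear signals, where unadjusted p was under 0.05 for 5 and 2 of the markers. For the 4 genes the t-test gave an adjusted p of 0.107 to 0.171 on log2 signals. On linear signals the t-test gave an adjusted p of 0.631 for Cdh5, 0.556 for Emcn, 0.108 for Cd34 and 0.0729 for Esm1. Of the further endothelial genes 6 passed, against 0 with either t-test (10 on log2 and 7 on linear signals at an unadjusted p under 0.05) and 0 with limma without the trend (12 at an unadjusted p under 0.05), and 2 to 13 with 1 array left out. Over all genes 1237 passed, against 14 and 53 with the t-test on log2 and linear signals, 133 without the trend, and 551 to 2512 with 1 array left out. Over probe sets 2137 passed, against 28, 100 and 295, and 910 to 4482. Chosen after seeing the data, leaving out both iLarge T replicate 6 and naïve replicate 1 gave 4 of the 10 markers, 9 further endothelial genes, 2532 genes and 4564 probe sets. The cause of these differences was not tested. The floor moved the median log2 fold change of all genes to 0.17, against 0.06 in the reported fit. No log2 fold change of the 10 markers changed sign under any of these alternatives. This was fixed in advance for the t-tests and for limma without the trend, which share the fold change of the reported fit. Other choices of probe set could alter it only for Cdh5 and Eng. Without detection calls, signals near background have no order, which limits Tie1, Vwf and Pecam1.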
